A study of Xenopus tropicalis with 9 samples.

Results

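Of 10336 genes in the table, 27 formed a set chosen on deposited values. On that scale they held a steady level in every chondrocyte library and were at least 4 times lower, yet still detected, in osteoblasts. Chondrocytes are the cells of cartilage and osteoblasts are the cells that deposit bone. The members were chosen from the measured values of all 9 libraries. A member had to reach 20 ppm in each of the 6 chondrocyte libraries, and its highest chondrocyte value had to stay under 4 times its lowest. It also had to reach 1 ppm in at least 1 osteoblast library, and its lowest chondrocyte value had to be at least 4 times the highest osteoblast value plus 1 ppm. In this rule 1 ppm is a deposited value of 9.52, which is the mean library total divided by 1000000. The difference from bone and the small range within cartilage were therefore set by the choice, and both are given below as a description.

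RNA was taken by laser capture microdissection, which cuts chosen cells out of a tissue section, from untreated wild-type western clawed frogs (Xenopus tropicalis). All groups were at stage NF57, 22 to 24 days after fertilisation at 27 to 28 °C. Mature chondrocytes of the humerus gave 3 libraries, immature chondrocytes of the humerus gave 3, and osteoblasts of the medial angulosplenial, a lower jaw bone, gave 3. Cell type and skeletal site changed together wherever cartilage was set against bone, so the contributions of cell type and site cannot be told apart. No label ties a library to a particular animal, so the spread between libraries may be technical.

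Cartilage is a tissue in which chondrocytes sit in a matrix of fibrillar collagen and proteoglycans that they secrete. In a limb bone that forms through a cartilage model, immature chondrocytes divide and make this matrix, while mature chondrocytes enlarge and alter it before bone replaces them. Osteoblasts build a different matrix, rich in another fibrillar collagen, which mineralises. The deposited table gives Ensembl identifiers without gene names. A RefSeq gene table of the assembly UCB_Xtro_10.0 held a match for 0 of these 10336 identifiers. No function, family, position or sequence could therefore be attached to any member, and the labelled cell types could not be checked against their marker genes. Only 4 identifiers are given, and the other members are called by their rank from 1 to 27, ordered by the lowest chondrocyte value.

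Deposited totals were 7594328 to 14055110 per library in mature chondrocytes, 7854945 to 8860505 in immature chondrocytes and 7885947 to 10886339 in osteoblasts. These corresponded to an estimated 7160000 to 8850000, 9470000 to 10730000 and 7560000 to 13070000 reads. By deposited values mature replicate 1 stood apart from mature replicates 2 and 3. For 75.0% of all tested genes it was closer to the mean of the immature libraries than to the mean of those libraries. Its deposited total, 7594328, was also nearer to the immature totals than to theirs, 11414708 and 14055110. The comparison was not made at the same total. Osteoblast replicate 1 listed 2231 genes at 0, more than any other library. Levels below are in ppm of the library's own deposited total unless the rule's scale is named.

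The 27 members took a larger share of the deposited total in chondrocytes than in osteoblasts, a direction set by the rule. Together they made up 9.31%, 8.51% and 6.11% of the total in mature chondrocytes, 5.89%, 7.39% and 6.72% in immature chondrocytes, and 0.411%, 0.514% and 0.282% in osteoblasts. The mean was 7.97% ± 1.66 (SD, n = 3) for mature chondrocytes, 6.66% ± 0.752 (SD, n = 3) for immature chondrocytes and 0.402% ± 0.116 (SD, n = 3) for osteoblasts. The mature and immature libraries overlapped, and no osteoblast library came near either. In bulk captures of this kind, fewer cells with a transcript and less of it per cell cannot be told apart.

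**Figure D1:**
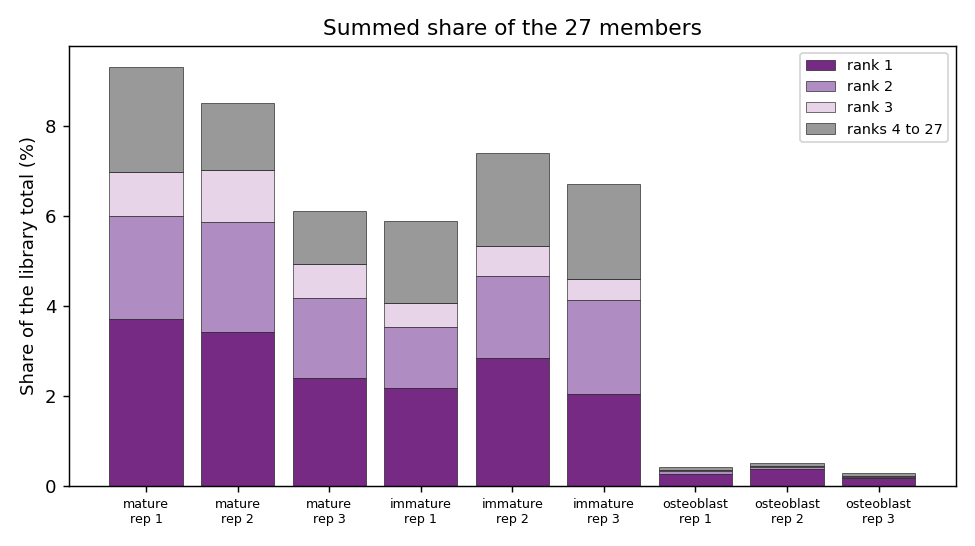
Stacked bars show the share of each library's deposited total, in percent, taken by members 1, 2 and 3 and by members 4 to 27. Members 1 to 3 fill most of every bar, and the osteoblast bars reach at most 0.514%.

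A few members dominated the sum. Members 1 to 3 supplied 74.9%, 82.4% and 80.6% of it in mature chondrocytes, 69.0%, 72.1% and 68.4% in immature chondrocytes, and 85.8%, 86.3% and 74.1% in osteoblasts. Members 4 to 27 took 2.34%, 1.497% and 1.19% of the total in mature chondrocytes, 1.83%, 2.06% and 2.12% in immature chondrocytes, and 0.0584%, 0.0705% and 0.0728% in osteoblasts. Within the mature group this sum was highest in replicate 1, and in replicates 2 and 3 it lay below the sum of every immature library. That holds for the sum by share of the library total, and not for each member. On the same scale both replicates lay below every immature library for 44.6% of all genes tested. The sum was not compared by deposited values.

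Members spanned a wide range of abundance. The lowest chondrocyte value of a member ran from 21.0 to 17811 ppm on the rule's scale, with a median of 219 ppm. It was 1000 ppm or more in 6 members and 100 ppm or more in 21. The 6 weakest members lay under 50 ppm. By mean level 22 members were among the 1000 most abundant genes of mature chondrocytes, 22 among those of immature chondrocytes and 5 among those of osteoblasts. The median rank among all genes was 252 in mature chondrocytes, 312 in immature chondrocytes and 3850 in osteoblasts. These ranks were not corrected for transcript length, which the table does not give. The level of 20 ppm in every chondrocyte library was met by 2103 of the 10336 genes. That level and the gap to osteoblasts shaped both the ranks and the counts, so they are a description.

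**Figure D2:**
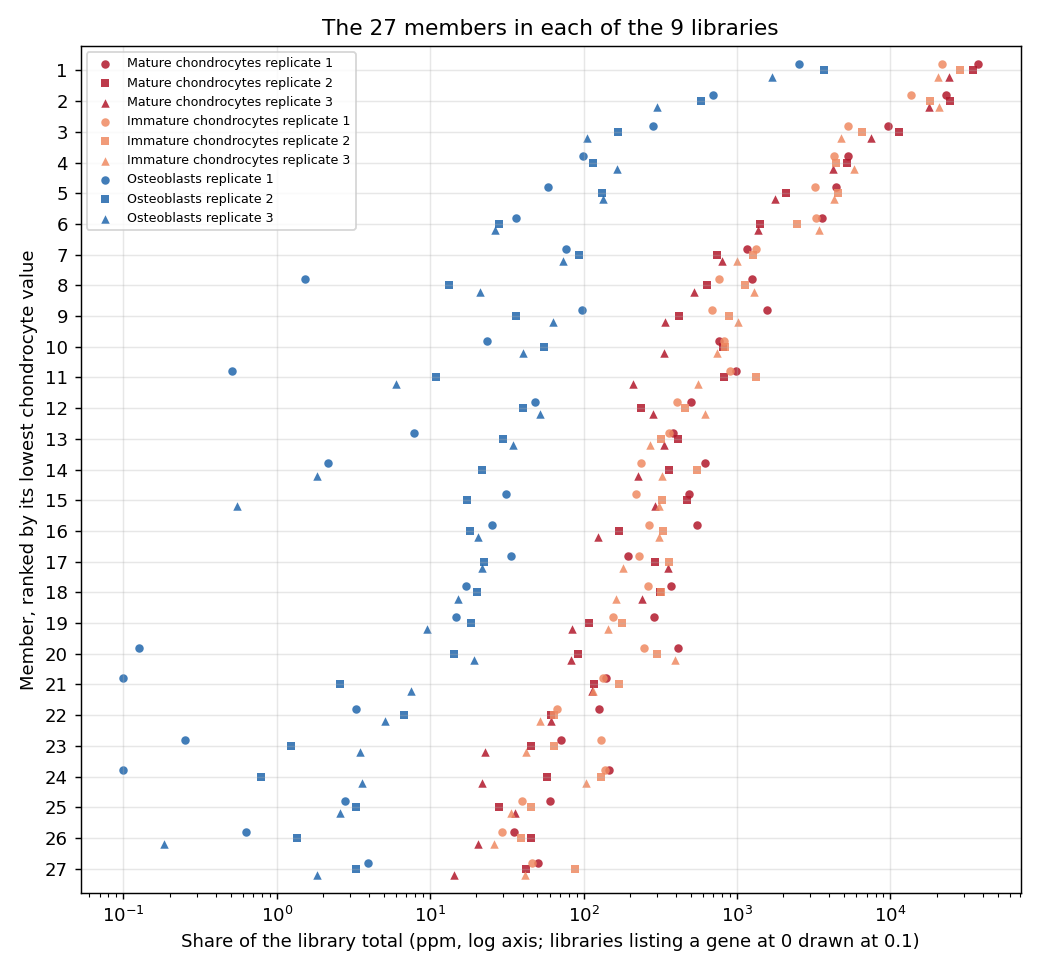
Each row is 1 member, ranked by its lowest chondrocyte value, and each point is its share in 1 library in ppm on a log axis; a library that lists the gene at 0 is drawn at 0.1. Every osteoblast point lies left of every chondrocyte point of its row, as the rule requires, while the osteoblast points of a row lie close together for some members and are spread widely for others.

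The most abundant member was ENSXETG00000010839. It held 37095, 34279 and 23921 ppm in mature chondrocytes, 21662, 28487 and 20489 ppm in immature chondrocytes, and 2545, 3679 and 1681 ppm in osteoblasts. It ranked 1 among all genes of mature chondrocytes, 2 in immature chondrocytes and 85 in osteoblasts. The label of a gene low in bone is therefore relative here, since this transcript was still among the 100 most abundant of osteoblasts, the only member that was. Its fitted log2 difference between chondrocytes of both kinds and osteoblasts was 3.47 (SE 0.44), a value the rule fixed in direction.

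Member 2 was the next most abundant and fell further behind in bone. It held 22948, 24407 and 17911 ppm in mature chondrocytes, 13652, 18207 and 20682 ppm in immature chondrocytes, and 696, 586 and 303 ppm in osteoblasts. Its mean was 37.2 times as high over the 6 chondrocyte libraries as in osteoblasts, against 10.5 times for ENSXETG00000010839. Member 3 held 9624, 11398 and 7419 ppm in mature chondrocytes, 5287, 6567 and 4744 ppm in immature chondrocytes, and 284, 168 and 105 ppm in osteoblasts. For member 3 every mature library lay above every immature library. Members 4 and 5 followed with means of 4856 and 3394 ppm over the 6 chondrocyte libraries, and 126 and 107 ppm in osteoblasts.

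ENSXETG00000002588, member 6, had the widest gap between its lowest chondrocyte and highest osteoblast value, 53.8 times on the rule's scale. It held 3595, 1402 and 1370 ppm in mature chondrocytes, 3263, 2450 and 3409 ppm in immature chondrocytes, and 36.0, 28.2 and 26.5 ppm in osteoblasts. The osteoblast libraries were close to each other. By share of the library total, mature replicates 2 and 3 were the lowest chondrocyte libraries. On that scale both lay below every immature library for 44.6% of all genes tested. By deposited values mature replicate 3, at 19254, lay just above immature replicate 2, at 19244. An estimated 284, 213 and 346 reads stood behind the osteoblast values, so the low level there was well counted. Its fitted log2 difference between chondrocytes of both kinds and osteoblasts was 6.32 (SE 0.34).

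The gap differed greatly among members. It was between 4 and 5 times in 3 members, from 5 to under 8 in 12, from 8 to under 16 in 5 and 16 or more in 7, with a median of 7.56. As a ratio of mean ppm over the 6 chondrocyte libraries to mean ppm in osteoblasts, members ran from 8.91 to 137, with a median of 21.3. The ratio was under 10 in 1 member, from 10 to under 20 in 12, from 20 to under 50 in 10 and 50 or more in 4. Those 4 were members 6, 8, 11 and 24, at 85.4, 77.5, 137 and 68.3 times. Member 12 had the lowest ratio, with 499, 237 and 284 ppm in mature chondrocytes, 409, 457 and 621 ppm in immature chondrocytes, and 48.2, 40.2 and 52.2 ppm in osteoblasts.

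Members that were abundant in cartilage were also the more abundant ones in bone. Across the 27 members Spearman's rho between the mean chondrocyte and mean osteoblast level was 0.88, and between the mean chondrocyte level and the ratio 0.08. Both are descriptions across genes of the same 9 libraries, and the rule kept osteoblast values under a fixed part of chondrocyte values. The members did not share 1 proportion in any osteoblast library. As a percentage of the chondrocyte mean they stood at up to 12.5% in osteoblast replicate 1 with a median of 3.54%, at 0.795% to 13.3% in replicate 2 with a median of 5.60%, and at 0.158% to 12.5% in replicate 3 with a median of 5.57%. What part RNA from cartilage captured along with bone had in these values was not tested.

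**Figure D3:**
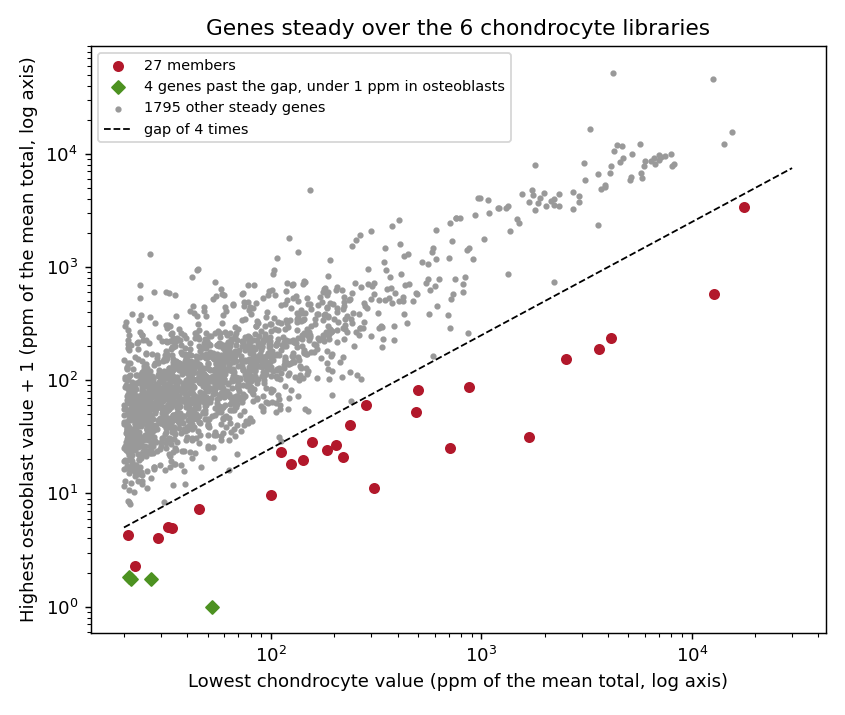
Each point is 1 of the 1826 genes steady over the 6 chondrocyte libraries, with its lowest chondrocyte value against its highest osteoblast value plus 1, both in ppm of the mean total on log axes. The 27 members lie below the dashed line of the 4-times gap, and the 1795 genes that do not reach it lie above.

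Few steady genes met the bone condition. Of 2103 genes at 20 ppm or more in all 6 chondrocyte libraries, 1826 kept within the 4-times range, and the 27 members were 1.48% of these. The nearest members to the gap bound stood at 4.68, 4.79 and 4.94 times, and the nearest steady genes outside it at 3.93, 3.84 and 3.68 times. The highest deposited chondrocyte value was 3.997, 3.60 and 3.53 times the lowest in the widest-ranging members, the first of these lying just under the bound. In the nearest genes that missed only this bound it was 4.48, 4.78 and 5.31 times. The lowest chondrocyte value had a median of 219 ppm over the members and 45.6 ppm over the 1795 steady genes that do not reach the gap. It was 24.3 ppm over another 4 steady genes that passed the gap but stayed under 1 ppm in every osteoblast library. The osteoblast conditions of the rule divide these classes, so the medians are a description.

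Detection in bone was firm for most members and thin for a few. All 3 osteoblast libraries reached 1 ppm of the mean total for 20 members, 2 libraries for 5 and 1 library for 2. An estimated 100 reads or more stood behind every osteoblast value of 14 members. In 5 members the best osteoblast library held under 50 estimated reads, so their ratios carry a large counting error. Member 26, the weakest in bone, had an estimated 5, 10 and 2 reads in the osteoblast libraries, at 0.634, 1.36 and 0.184 ppm.

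Osteoblast libraries disagreed on some members. The highest deposited osteoblast value was under 2 times the lowest in 12 members and from 2 to under 4 times in 5. It was wider, or a value was 0, in 10. By deposited values, replicate 1 held under 0.1 times the highest osteoblast value for 7 members, replicate 3 for 1 and replicate 2 for 0. Over all genes that reached 1 ppm of the mean total in some osteoblast library, the same happened for 28.3%, 16.4% and 13.7% of genes, so replicate 1 was the lowest in this sense for the whole table as well. Member 8 shows the pattern, with 1247, 636 and 526 ppm in mature chondrocytes, 765, 1125 and 1296 ppm in immature chondrocytes, and 1.52, 13.4 and 21.2 ppm in osteoblasts. Member 15 was low in replicate 3 instead, at 31.3, 17.4 and 0.551 ppm in osteoblasts.

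By deposited values ENSXETG00000001474, member 20, had the widest range among members above 0 in all osteoblast libraries, its highest 211 times its lowest. It held 411, 92.6 and 83.1 ppm in mature chondrocytes, 248, 300 and 391 ppm in immature chondrocytes, and 0.127, 14.3 and 19.4 ppm in osteoblasts. An estimated 1 read stood behind the value of osteoblast replicate 1, against 108 and 253 in the others. Its fitted log2 difference between chondrocytes of both kinds and osteoblasts, 4.89 (SE 0.76), was 3.54 without osteoblast replicate 1 and 5.39 and 5.74 without replicates 2 and 3.

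Members 21 and 24 were listed at 0 in osteoblast replicate 1, where a count of 0 allows up to 0.380 ppm by counting error alone. ENSXETG00000006348, member 24, held 145, 57.8 and 21.8 ppm in mature chondrocytes, 138, 131 and 104 ppm in immature chondrocytes, and 0, 0.792 and 3.58 ppm in osteoblasts. Both this gene and member 20 were near the immature level in mature replicate 1 and lower in mature replicates 2 and 3. For member 24 the highest deposited chondrocyte value was 3.997 times the lowest, the widest range of any member. By share of the library total its range was 6.66 times, past the bound of 4 times.

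Chondrocytes of both kinds were set against osteoblasts in a limma fit over all 9080 tested genes, to place the members on the scale of the whole table. At an adjusted p under 0.05, 653 genes (7.19%) were higher in chondrocytes. All 27 members were tested and all 27 were among these 653, a count that follows from the rule and is no support. The log2 difference of a member was 3.11 to 7.11, with a median of 4.33, against a median of 0.18 over all genes tested. The 1799 steady genes that are not members had a median of 0.38.

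Mature and immature chondrocytes were compared to see how far the members shifted within cartilage, within the 4-times range the rule allows. In the limma fit 0 of 9080 genes (0.0%) passed an adjusted p of 0.05, and 457 genes (5.03%) had an unadjusted p under 0.05. Of the 27 members 0 passed and 1, member 3, had an unadjusted p under 0.05. That member was higher in mature chondrocytes by 1.13 (SE 0.44) on the log2 scale, with a limma adjusted p of 0.964. The 95% interval of the mature minus immature difference included 0 for the other 26 members. For the median member that unadjusted interval reached 1.04 to either side of the estimate. It is no detection limit of the adjusted test, under which member 3 was not called at 1.13.

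**Figure D4:**
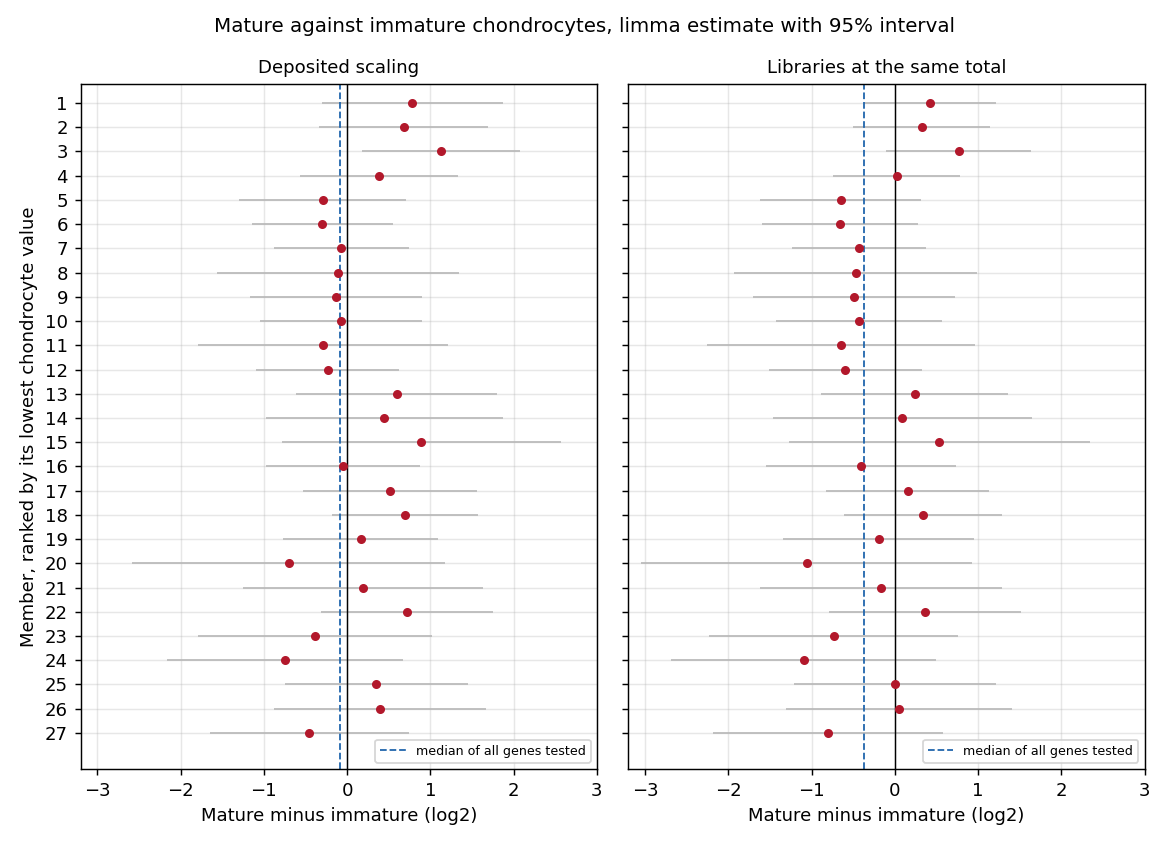
Points are the limma log2 differences of mature minus immature chondrocytes for each member, with unadjusted 95% intervals, on the deposited scaling (left) and with libraries brought to the same total (right); the dashed line is the median of all genes tested. Differences run from -0.74 to 1.13 on the left and from -1.10 to 0.77 on the right, and member 3 on the left is the only one whose interval leaves out 0.

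The direction of these small shifts depended on the scaling. On the deposited scaling 14 members were above 0 and 13 below, with a median of 0.16 against -0.09 for all genes tested and 0.04 for the other steady genes. With every library brought to the same total, 11 members were above 0 and 16 below, with a median of -0.20 against -0.37 for all genes and -0.31 for the other steady genes. Against the median of all genes, 17 members lay higher on the deposited scaling and 14 at the same total.

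Members 1 to 3 were higher in every mature library by deposited values, and 1 of them by share. Every mature library was above every immature library in 6 members (22.2%) by deposited values. This held for 4.57% of genes tested and 7.52% of the steady genes that do not reach the gap. Every mature library was below in 0 members, against 5.94% and 3.45%. The 6 were members 1, 2, 3, 15, 18 and 22. By share of the library total the count above was 1 (3.70%), against 2.89% of genes. On that scale 5 of the 6 no longer stood apart, while member 3 did on both. The count below was 0, against 8.2% of genes. Mature replicates 2 and 3 had the largest deposited totals of the chondrocyte libraries, 11414708 and 14055110.

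Mature minus immature chondrocytes, ENSXETG00000010839 stood at 0.78 on the log2 scale (SE 0.51, limma adjusted p = 1.0). ENSXETG00000002588 stood at -0.30 (SE 0.39, limma adjusted p = 1.0). The lowest values among members belonged to ENSXETG00000006348, at -0.74 (SE 0.66, limma adjusted p = 1.0), and ENSXETG00000001474, at -0.70 (SE 0.88, limma adjusted p = 1.0). None of the 4 passed the test under any alternative run, where their adjusted p was 0.207 or more.

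Mature replicate 1, which stood apart from its group over the whole table by deposited values, did so for the members at a share near that background. Its value was closer to the mean of the immature libraries than to the mean of mature replicates 2 and 3 for 18 of 27 members (66.7%), against 75.0% of all tested genes and 69.2% of the steady genes that do not reach the gap. By deposited values mature replicates 2 and 3 were both above every immature library for 9 members (33.3%). The share was 18.4% of genes tested and 20.5% of the steady genes that do not reach the gap. Both were below for 5 members (18.5%), against 25.8% and 17.7%. By share of the library total the counts were 1 above, against 9.41% of genes, and 10 below, against 44.6% of genes. Without mature replicate 1, limma called 262 of 9033 genes (2.9%) and 0 of the 27 members, a count near that background. The smallest adjusted p of a member was then 0.124.

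Steadiness varied from member to member. The highest deposited chondrocyte value was 1.41 to 3.997 times the lowest, with a median of 2.30. It was under 2 times in 10 members, from 2 to under 3 in 10 and 3 or more in 7. By share of the library total, members 9, 11, 16, 20, 23, 24 and 27 went past 4 times, at 4.37 to 6.66 times. The median SD of a member's deposited values on the log2 scale was 0.39 within mature chondrocytes, 0.25 within immature chondrocytes and 0.53 within osteoblasts. Over all genes tested these medians were 0.67, 0.34 and 0.97. For the steady genes that do not reach the gap they were 0.42, 0.29 and 0.79. The rule bounds the range within chondrocytes and caps the highest osteoblast value of a member. The SDs of the members in all 3 groups are therefore a description, and the smaller osteoblast SD is no result about bone.

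Member 7 had the narrowest chondrocyte range of the 27 by deposited values. It held 1165, 744 and 797 ppm in mature chondrocytes, 1323, 1270 and 1004 ppm in immature chondrocytes, and 76.5, 92.8 and 73.8 ppm in osteoblasts. Its highest deposited value was 1.41 times its lowest over the 6 chondrocyte libraries and 1.36 times its lowest over the osteoblast libraries. By share of the library total its range was 1.78 times, and member 4 had the narrowest, at 1.39 times. By deposited values the lowest chondrocyte library was immature replicate 3 for 10 members (37.0%), against 9.47% of the steady genes that do not reach the gap and 7.64% of all genes tested. Mature replicate 1 was the lowest for 0 members, against 16.2% of those steady genes and 15.5% of all genes tested. Mature replicate 2 was the highest for 9 members (33.3%), against 17.2% and 21.0%. These counts rest on the deposited scaling and were not made by share of the library total, where libraries change places. Member 7, for example, was lowest in immature replicate 3 by deposited values and in mature replicate 2 by share.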

How the data were processed

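Per the labels' protocols, the captured RNA was purified, DNase treated and amplified in 1 round before library preparation, a step that makes rare transcripts vary more. Trimmomatic 0.36, STAR 2.5.3a and edgeR were used, per the submitters' processing notes. Build, annotation, counting, filter and scaling are not given in the sources used here. Values the authors deposited were treated as a score: normalized counts, rounded to whole numbers. What 1 read was worth was estimated per library from skipped and doubled whole numbers (0.732 to 1.60), and read numbers are estimates. Exact reads were not recovered, so no count model was run.

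Genes with a value of at least 9.52, which is 1 ppm of the mean total, in 3 or more libraries were tested as log2(value + 9.52) in a limma 3.58.1 fit (R 4.3.3) of the 3 groups with a variance trend, with Benjamini-Hochberg adjustment over all 9080 genes; differences of low genes are understated on this scale. The fit was run on simulated data in which genes were changed only between chondrocytes and osteoblasts. That run does not bear on the comparison of mature and immature chondrocytes. Alternatives covered pseudocount, filter, scaling, variance model, weights, title number and each library left out. The members and lists were chosen with earlier results of these data known. Gene lists needed symbols and were not used. Identifiers were named by rule: the highest member, the widest gap and the 2 lowest mature against immature differences. Members called by rank were picked after their values were seen. Intervals from reads cover counting error only. Python 3.11.15, numpy 2.4.6, pandas 2.3.3 and matplotlib 3.10.9 were used.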

Additional observations from a re-analysis of the deposited data

How the results depend on the processing

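All 27 members were called against osteoblasts in every alternative run that held osteoblast libraries. Between mature and immature chondrocytes 0 members were called in any alternative run. The rule set the first difference and bounded the second, so neither count is support. Over all genes, the alternative runs called 8.68% to 18.4% against osteoblasts and 0% to 5.15% between mature and immature chondrocytes. Applying the rule anew gave 24 to 37 genes under both scalings and with each library left out. It gave 12 genes with a gap of 8 times and 10 with a steadiness bound of 2 times. Leaving a library out takes each lowest and highest value over fewer libraries, so those runs could hardly lose members. They lost at most 1. At the same total 20 of the 27 members were found again, 7 were lost and 4 were gained. Without the most abundant member the summed share was 4.80% in mature chondrocytes, 4.31% in immature chondrocytes and 0.139% in osteoblasts. The median log2 difference of the members against osteoblasts was 4.87 and 3.75 with pseudocounts of 0.5 and 5 ppm, and 3.82 to 4.48 with 1 library left out, the lowest without osteoblast replicate 1. Over all genes, library weights gave 468 calls between mature and immature chondrocytes and 863 between chondrocytes and osteoblasts, against 0 and 1484 without weights. At an adjusted p under 0.01 the count against osteoblasts was 788. Leaving out 1 library gave 0 to 262 calls between mature and immature chondrocytes. The cause of these changes was not tested. Only 1 title number is shared by each pair of groups, and deviations of the libraries sharing one correlated at -0.10, 0.10 and 0.32. Library pairs of different groups with unlike numbers ran from -0.28 to 0.32. The fit with the title number as a block estimated a correlation of 0.19 among libraries sharing one. A pairing was therefore not shown, and whether such libraries share an animal or batch was not tested. With the title number as a random replicate block, 0 and 1668 genes were called, and the median log2 difference of the members was 0.14 between mature and immature chondrocytes and 4.39 against osteoblasts. Depth limits the osteoblast values of the 5 members with under 50 estimated reads there.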
